A study of Mus musculus with 16 samples.

Results

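The genes described here are 8 early response genes of cultured mouse ovarian follicles: the Krüppel-like factor genes Klf2, Klf4, Klf6, Klf9 and Klf10, the stress-induced factor Atf3, the growth regulator Myc and the survival gene Ier3. They were chosen by name, and every probe set annotated to one of them alone was read, which gave 19 probe sets, 17 of them past a filter on low signals. All 8 genes were among the 12172 genes tested, each through its brightest probe set. The measure is the microarray signal, a brightness scaled per array that has no unit, and its logarithm, log2(signal + 1.46). Signals of different genes come from different probes and are not set against each other.

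Growing follicles, preantral to small antral, were dissected from C57BL/6Tac mice, 8 weeks old per the sample labels, and those of 8 mice were pooled per experiment. Follicles were cultured singly with 50 ng/ml recombinant anti-Müllerian hormone (AMH) for 24 h, without AMH for 24 h, with 50 ng/ml AMH for 12 h, or without AMH for 12 h, with 4 arrays in each of the 4 groups. All groups, controls included, had gonadotropins in the medium, FSH at 80 IU/L and LH at 10 IU/L, so every comparison was made in stimulated follicles, and no array was taken before culture. Each array held RNA of 6 to 9 whole follicles, in which fewer cells of a type and less RNA per cell cannot be told apart. Each pool was divided over both treatments, and AMH and control arrays of one number and time were taken as such a pair, 4 pairs at each time. The labels do not say that 24 h and 12 h experiments of one number shared a pool, so times were compared without pairing.

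Krüppel-like factors carry zinc fingers at their C-terminal end and bind GC-rich or CACCC sequences, where some activate and others repress transcription. Many of them, like Atf3, Myc and Ier3, belong to the genes that a cell switches on within a short time of a growth factor, hormone or stress, often without new protein synthesis, and whose transcripts decay fast. In granulosa cells, the somatic cells around the oocyte, gonadotropins act through cAMP and, after LH, through EGF-like factors and the ERK kinases, which are known inducers of such genes.

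The sequences shown are RefSeq promoters (build GRCm38.p6, the 250 bases before the annotated start, 5′ to 3′ on the gene's strand) of the genes that fell over culture time and had an entry, with that of Klf9, whose level moved least, for comparison. Of the 8 genes, 6 had an entry. The Klf2 window lies at chr8:72318812-72319061 (plus strand), Klf4 at chr4:55532476-55532725 (minus strand), Ier3 at chr17:35821463-35821712 (plus strand) and Klf9 at chr19:23140976-23141225 (plus strand). Capitals mark the GC box GGGCGG, a sequence that Krüppel-like and SP factors are known to bind, and TGACG, the core of the cAMP response element, on either strand.
Klf2: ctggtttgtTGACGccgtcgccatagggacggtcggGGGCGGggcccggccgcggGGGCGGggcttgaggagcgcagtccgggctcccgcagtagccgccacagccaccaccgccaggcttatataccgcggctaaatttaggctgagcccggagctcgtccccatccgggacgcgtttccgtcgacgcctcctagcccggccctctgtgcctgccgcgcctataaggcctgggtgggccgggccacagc
Klf4: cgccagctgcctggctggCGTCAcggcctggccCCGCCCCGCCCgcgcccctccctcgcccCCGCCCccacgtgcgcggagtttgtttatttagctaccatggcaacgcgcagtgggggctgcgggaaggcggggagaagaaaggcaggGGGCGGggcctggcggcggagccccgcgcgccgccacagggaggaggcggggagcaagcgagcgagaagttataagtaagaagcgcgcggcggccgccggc
Ier3: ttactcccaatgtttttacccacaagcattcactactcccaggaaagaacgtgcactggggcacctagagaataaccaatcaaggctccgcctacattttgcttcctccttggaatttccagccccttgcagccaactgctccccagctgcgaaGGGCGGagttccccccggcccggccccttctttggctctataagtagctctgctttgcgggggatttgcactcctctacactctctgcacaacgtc
Klf9: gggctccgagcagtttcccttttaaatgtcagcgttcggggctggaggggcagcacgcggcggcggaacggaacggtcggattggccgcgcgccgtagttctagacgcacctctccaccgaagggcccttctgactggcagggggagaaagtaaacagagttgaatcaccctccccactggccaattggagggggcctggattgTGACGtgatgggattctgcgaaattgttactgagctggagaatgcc
The GC box was found 4 times before Klf4 (2 of these overlapping), 5 times before Atf3 (2 of them overlapping), 2 times before Klf2 and 1 time each before Klf6 and Ier3, while the Klf9 window held none. It occurred in 32.74% of all 32851 promoter windows of this length. The core element TGACG was found before Klf2, Klf4, Klf9 and Atf3, against 17.77% of all windows, and the full element TGACGTCA before none of the 6, against 1.55%. The AP-1 motif TGANTCA was found before Klf9, against 6.75%. These matches describe the letters of the windows only.

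Between the culture times, Klf4, Klf10 and Ier3 fell in both arms, with AMH and without it. Each pool was divided over both treatments, so the arms are not independent, and a difference between pools of the times would enter both. Klf2 fell with AMH, and its smaller fall in controls did not pass the threshold given next. In the AMH arm 4 of the 8 genes passed the threshold (adjusted p under 0.05 over all 12172 genes), all lower, where 8.28% of all genes passed and 3.94% as lower. In the controls 3 of 8 passed, all lower, where 19.1% of all genes passed and 9.19% as lower. The 24 h arrays lay wholly below the 12 h arrays for Klf4 and Myc with AMH, as for 7.65% of all genes, and for Klf10 and Ier3 in controls, as for 10.9%. The median change of the 8 genes was -0.67 with AMH and -0.65 in controls on the log2 scale, beside -0.02 and -0.01 over all genes tested. Because the genes were picked as an early response with results of these arrays known, these counts describe them and are no test of the group.

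**Figure D1:**
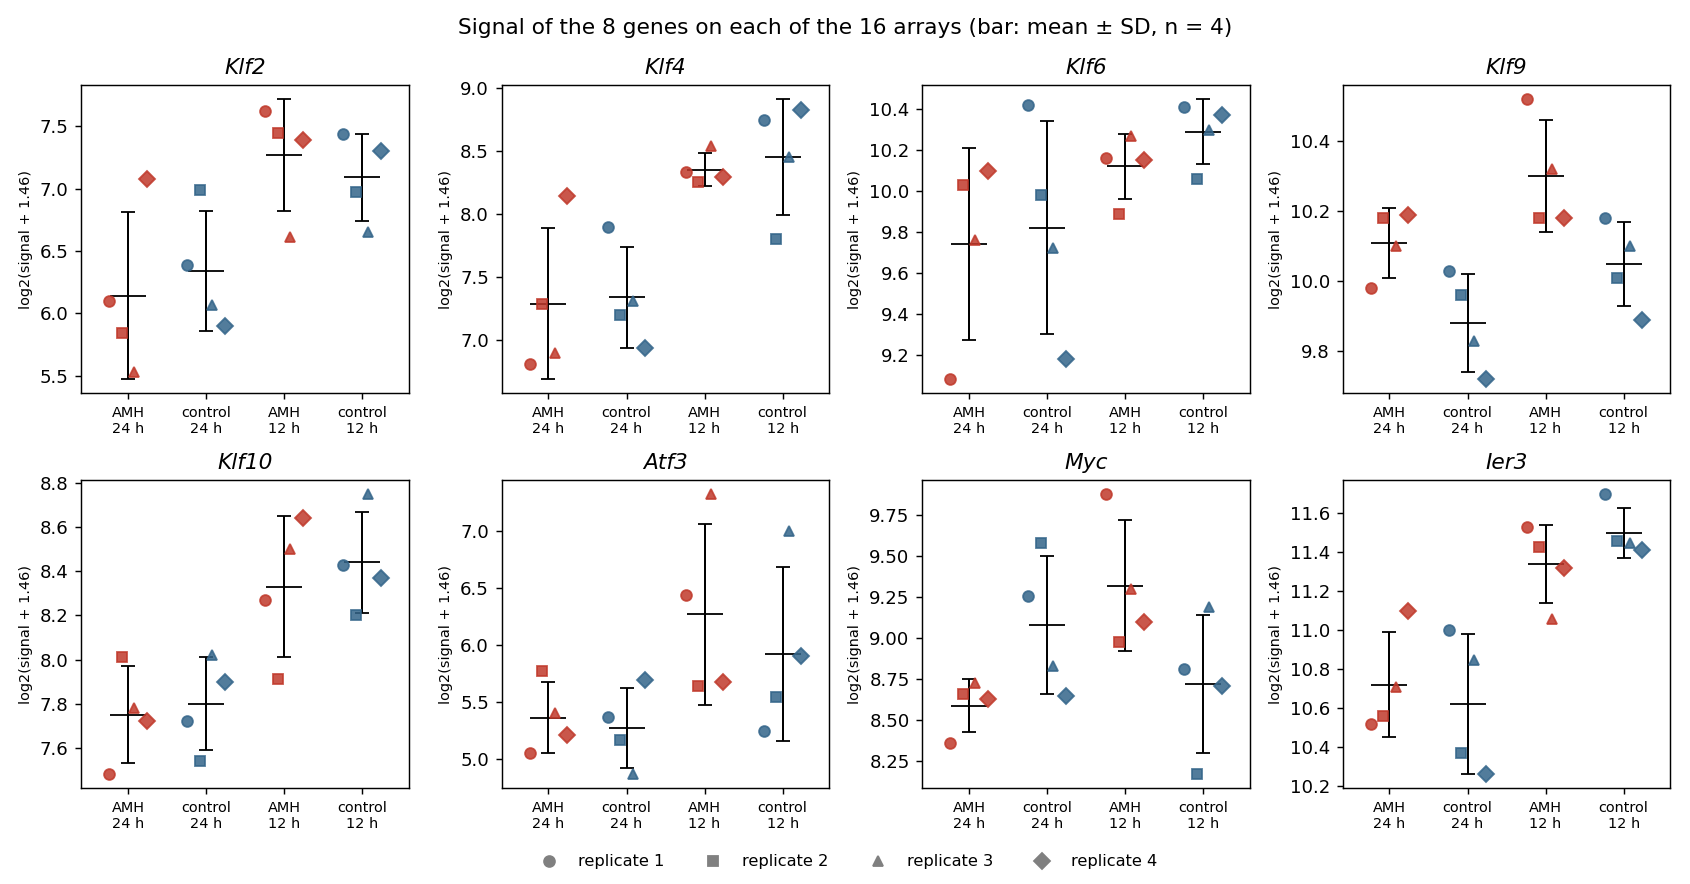
Signal of each of the 8 genes on the 16 arrays, as log2(signal + 1.46), with AMH in red, controls in blue, replicate numbers as symbols and bars for the mean ± SD of 4 arrays. Klf10 and Ier3 of the 24 h controls lie wholly below the 12 h controls, and Klf4 and Myc with AMH lie wholly below at 24 h.

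Klf2 (chr8:72319062-72321654 in GRCm38.p6) encodes a factor best known from vascular endothelium and from lymphocytes, where it holds cells quiescent. Its signals with AMH were 67.2, 56.0, 44.6 and 134 at 24 h (replicates 1 to 4), against 195, 173, 96.5 and 166 at 12 h. Of the 24 h arrays, replicate 4 stood above the lowest 12 h array, so the groups overlapped. The change was -1.13 (SE 0.32, 2.19-fold lower, adjusted p = 0.0401 by limma). Control signals were 82.2, 126, 65.7 and 58.2 at 24 h, against 172, 124, 99.2 and 156 at 12 h, a change of -0.75 (SE 0.32) that did not pass (adjusted p = 0.112). With array weights the control change was -0.99 and passed (adjusted p = 0.00789 by limma). The change with AMH minus that in controls was -0.38 (SE 0.42, adjusted p = 0.95 by limma), so the arms were not shown to differ. Leaving out 1 array at a time, the call with AMH remained without 12 h replicate 3 (adjusted p = 0.03) or 24 h replicate 4 (adjusted p = 0.00895). It was lost without any of the other 6 arrays, namely 12 h replicates 1, 2 and 4 and 24 h replicates 1, 2 and 3, with adjusted p between 0.0734 and 0.112 and changes between -0.93 and -1.12.

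Klf4 (chr4:55527137-55532475) encodes a factor of epithelial differentiation and one of the genes used to reprogram cells to pluripotency, and it is also expressed in endothelium and macrophages. With AMH its signals were 111, 155, 118 and 280 at 24 h, against 321, 302, 370 and 312 at 12 h. All 4 of the 24 h arrays lay below all 12 h arrays, and replicate 4 came closest to them. In controls the signals were 237, 145, 157 and 121 at 24 h, against 425, 221, 349 and 450 at 12 h, where 24 h replicate 1 exceeded 12 h replicate 2. The change was -1.07 with AMH (SE 0.28, 2.09-fold lower, adjusted p = 0.0259) and -1.12 in controls (SE 0.28, 2.17-fold lower, adjusted p = 0.0106). The second Klf4 probe set fell alike, by 1.11 with AMH (adjusted p = 0.0462 when each probe set was tested on its own) and by 1.16 in controls (adjusted p = 0.0215). The control call held in all 22 other fits. The call with AMH was lost without 12 h replicate 3 or 4 or without 24 h replicate 1, 2 or 3, where adjusted p lay between 0.0541 and 0.0749 and the change between -0.91 and -1.09.

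Klf10 (chr15:38291464-38300711), also called TIEG1, was named as an early gene induced by TGF-β, the family to which AMH belongs. Its control signals were 209, 185, 259 and 238 at 24 h, against 344, 294, 429 and 329 at 12 h. All 24 h controls were below all 12 h controls. The control change was -0.64 (SE 0.17, 1.56-fold lower, adjusted p = 0.0153). It was lost in 1 of 22 other fits, without control 12 h replicate 3, where the change was -0.54 (adjusted p = 0.0501). With AMH the signals were 178, 257, 218 and 209 at 24 h, against 307, 240, 362 and 399 at 12 h, so that 24 h replicate 2 exceeded 12 h replicate 2. That change was -0.58 (SE 0.17, 1.50-fold lower, adjusted p = 0.0442). It remained called without 12 h replicate 2 (adjusted p = 0.015) or 24 h replicate 2 (adjusted p = 0.0458) and was lost without 12 h replicate 1, 3 or 4 or 24 h replicate 1, 3 or 4, with adjusted p between 0.0663 and 0.129 and changes between -0.48 and -0.61.

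Ier3, or IEX-1 (chr17:35821713-35822911), encodes a short-lived membrane protein that modulates cell survival and ERK signalling. Among the 8 genes it had the smallest p for time in controls, where its signals were 2050, 1320, 1840 and 1220 at 24 h, against 3330, 2810, 2790 and 2720 at 12 h. All 24 h controls were below all 12 h controls. The change was -0.89 (SE 0.17, 1.85-fold lower, adjusted p = 0.00195) and it held in all 22 other fits. With AMH the signals were 1460, 1510, 1670 and 2200 at 24 h, against 2960, 2770, 2130 and 2560 at 12 h, a change of -0.62 (SE 0.17, 1.53-fold lower, adjusted p = 0.0303). Here 24 h replicate 4 exceeded 12 h replicate 3 by a small margin. The call with AMH remained without 12 h replicate 3 (adjusted p = 0.0312) or 24 h replicate 4 (adjusted p = 0.0152), and was lost without 12 h replicate 1, 2 or 4 or 24 h replicate 1, 2 or 3, with adjusted p between 0.0646 and 0.0883 and changes between -0.55 and -0.62.

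**Figure D2:**
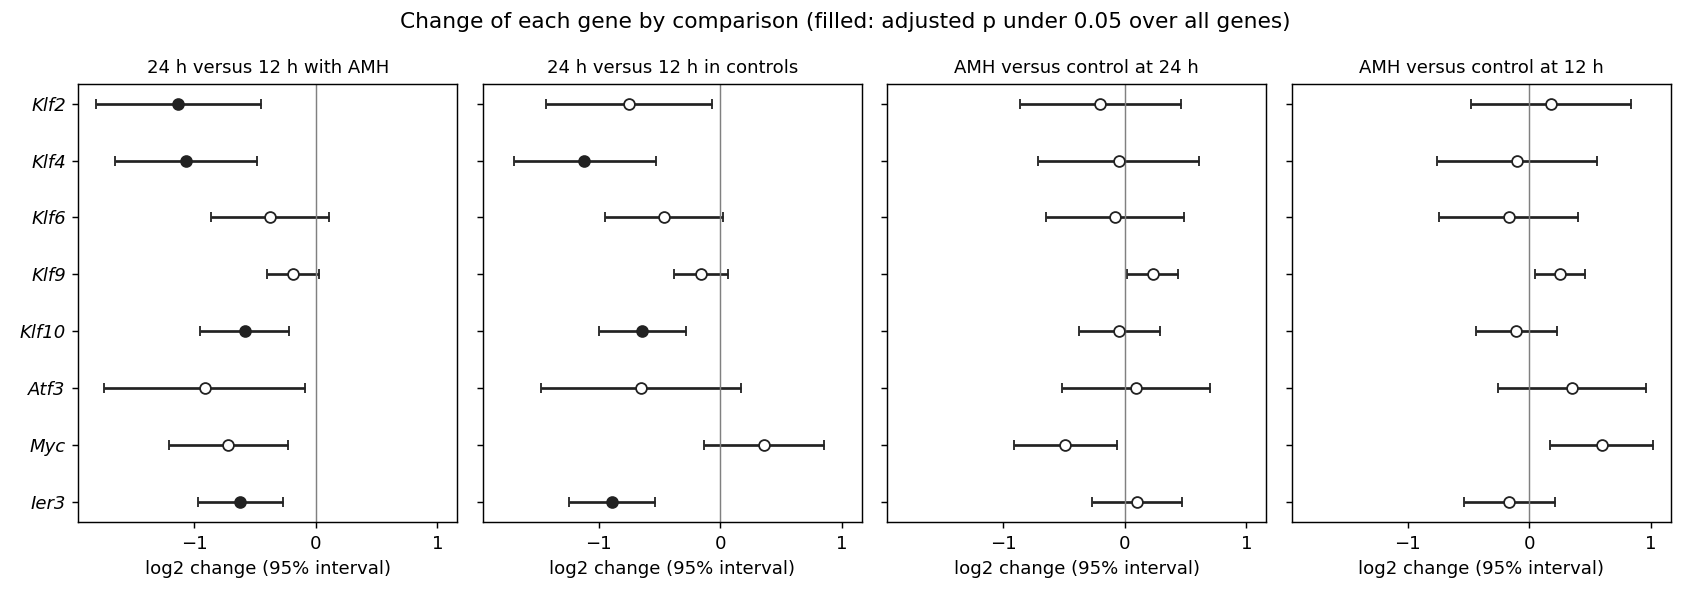
Log2 change of each gene in 4 comparisons, with its 95% interval from the moderated fit. Filled points passed an adjusted p of 0.05 over all genes: Klf2, Klf4, Klf10 and Ier3 for time with AMH, Klf4, Klf10 and Ier3 for time in controls, and none for AMH against control.

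The other 4 genes did not pass for time in either arm, though Klf6 in controls and Myc with AMH each passed in 1 of 22 other fits. Atf3 (chr1:191170296-191183333) is a factor of the ATF/CREB family that stress signals induce. With AMH its signals were 31.7, 53.1, 40.8 and 35.5 at 24 h, against 85.7, 48.6, 160 and 49.3 at 12 h. In controls its signals were 39.9, 34.4, 27.6 and 50.0 at 24 h, against 36.3, 45.0, 127 and 58.4 at 12 h. In each arm 12 h replicate 3 was the brightest array by far. Those arrays had the highest means of their 12 h groups for endothelial markers (7.51 with AMH and 7.98 in the control), stroma markers (8.31 and 8.52), immune markers (6.62 and 7.06) and oocyte markers (8.23 and 9.21), and the lowest for granulosa markers (7.81 and 7.61). The part of these markers in the Atf3 values was not tested. The changes were -0.91 (SE 0.39, adjusted p = 0.159) with AMH and -0.65 (SE 0.39, adjusted p = 0.26) in controls. Without that replicate they were -0.56 (adjusted p = 0.422) and -0.29 (adjusted p = 0.631).

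Klf6 (chr13:5861489-5870393) encodes a widely expressed growth-restraining factor. Its signals with AMH were 538, 1050, 863 and 1100 at 24 h, against 1140, 946, 1230 and 1140 at 12 h. In controls they were 1360, 1010, 843 and 578 at 24 h, against 1360, 1070, 1260 and 1330 at 12 h. The low arrays were AMH replicate 1 and control replicate 4 at 24 h. These were also the 24 h arrays richest in oocyte transcripts, with a mean log2 signal of 18 oocyte markers of 8.70 and 8.83, against 7.15 to 7.68 on the other 24 h arrays. The same arrays had the lowest immune marker means of their 24 h groups, 5.34 with AMH and 5.14 in the control, where the other 24 h arrays lay between 5.38 and 6.92. Control 12 h replicate 3, with a Klf6 signal of 1260, had the highest oocyte mean (9.21) and the highest immune mean (7.06) of all 16 arrays. The part of these markers in the Klf6 values was not tested. Klf6 changed over time by -0.38 with AMH (SE 0.23, adjusted p = 0.347) and by -0.46 in controls (SE 0.23, adjusted p = 0.17). Without AMH 24 h replicate 1 the first was -0.15 (adjusted p = 0.705), and without control 24 h replicate 4 the second was -0.25 (adjusted p = 0.435). With array weights the control change was -0.51 and passed (adjusted p = 0.0292 by limma). All 5 Klf6 probe sets had changes below 0 in both arms, between -0.06 and -0.61 with AMH and between -0.30 and -0.50 in controls.

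Klf9 (chr19:23141226-23168129), a hormone-responsive repressor known as a partner of the progesterone receptor in the uterus, was the steadiest of the 8. Its SD within groups was 0.13 on the log2 scale, at the 7.1 percentile of all genes, whose median was 0.27, whereas Atf3 had an SD of 0.60 and Klf2 of 0.50. The time change of Klf9 was -0.19 with AMH (SE 0.10, interval -0.40 to 0.03) and -0.16 in controls (SE 0.10, interval -0.38 to 0.06). Without AMH 12 h replicate 1 the first was -0.11. Of its 7 probe sets, 2 lay under the signal filter, and the other 5 changed by between -0.07 and -0.37 with AMH and between -0.03 and -0.21 in controls.

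Myc (chr15:61985341-61990361), which drives ribosome production and entry into the cell cycle, had the opposite sign to the other 7 genes in controls, without passing the test. Control signals were 613, 762, 453 and 399 at 24 h, against 446, 287, 581 and 417 at 12 h, a change of 0.36 (SE 0.23, adjusted p = 0.3). With AMH they were 328, 403, 422 and 394 at 24 h, against 942, 504, 629 and 548 at 12 h. In the AMH arm all 24 h arrays lay below all 12 h arrays. The change with AMH was -0.72 (SE 0.23, 1.65-fold lower) and did not pass (adjusted p = 0.0651). Without 12 h replicate 1, the brightest array, it was -0.53 (adjusted p = 0.17). With the AMH arrays fitted alone it was -0.72 and passed (adjusted p = 0.0454 by limma).

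The fall over time was shared by other immediate-early genes, from a list written by known function with earlier results in view. Of 41 listed genes 40 were measured, and 12 passed with AMH and 19 in controls, all lower, beside 3.94% and 9.19% of all genes called lower. The median changes of the list were -0.60 and -0.74. In both arms 11 were called, which is all but Arc of those called with AMH and 11 of the 19 called in controls. Arc had mean log2 signals of 3.64 with AMH and 3.76 in controls at 24 h, against 5.11 and 4.94 at 12 h. Its 24 h means were under the filter level of 4.18, so Arc was tested through its 12 h signals alone. Fosb (3.97 with AMH and 3.72 in controls) and Dusp2 (3.92 and 4.15) were also under that level at 24 h. Errfi1, a feedback inhibitor of the EGF receptor, fell 2.45-fold with AMH and 2.68-fold in controls, and Maff, a small basic leucine zipper factor, fell 2.32-fold with AMH and 2.90-fold in controls. Fosl1, a subunit of AP-1, fell 4.74-fold with AMH and 5.50-fold in controls. Ier5 fell 2.81-fold in controls and Gadd45b, a stress-response gene, 2.19-fold with AMH, each with an adjusted p of at most 0.00198. With 1 array left out at a time, 7 to 12 passed with AMH, the lowest count without 12 h replicate 3, and 17 to 20 in controls. Without AMH 24 h replicate 1 and control 24 h replicate 4 together, 10 and 17 of the list passed as lower.

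**Figure D3:**
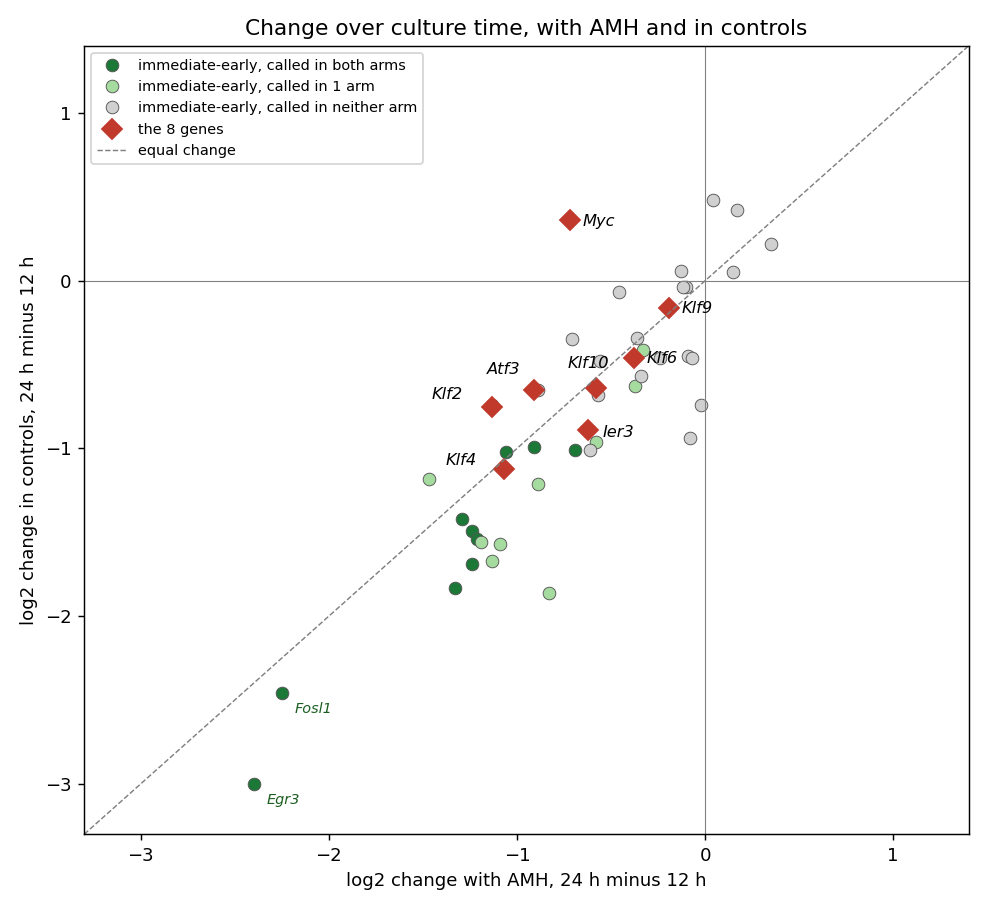
Log2 change, 24 h minus 12 h, with AMH (x axis) and in controls (y axis) for the 8 genes (diamonds) and 40 other immediate-early genes (circles, shaded by the number of arms in which they passed). Of the circles, 36 lie below 0 with AMH and 35 in controls, with Fosl1 and Egr3 lowest, and Myc is the only diamond with opposite signs.

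The relatives of the 8 genes in the KLF and SP families that were called rose in both arms, apart from Klf5, which fell in controls. Of 12 measured members of the KLF and SP families outside the set, 2 were called with AMH and 3 in controls, beside 8.28% and 19.1% of all genes. Klf11, the closest relative of Klf10 and likewise induced by TGF-β, rose 1.89-fold with AMH (adjusted p = 0.00225) and 1.86-fold in controls (adjusted p = 0.00125). Klf15, a metabolic regulator, was also called higher in both arms, with mean log2 signals of 5.79 with AMH and 4.95 in controls at 24 h, against 4.11 with AMH and 3.33 in controls at 12 h. Both 12 h means were under the filter level of 4.18, so Klf15 was tested through its 24 h signals alone and no fold is given. Klf5, a factor that promotes epithelial growth, fell 2.47-fold in controls (adjusted p = 0.0106), with a change of -0.90 with AMH (adjusted p = 0.0945). The other 9 did not pass in either arm.

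Of 13 measured genes of the Myc network, 1 was higher and 2 were lower with AMH, and 2 were higher and 2 lower in controls, beside 8.28% and 19.1% of all genes called. Mycl, a paralogue of Myc, rose 8.97-fold with AMH (adjusted p = 0.0157). In controls it was called higher too (adjusted p = 0.00237), at a mean log2 signal of 7.65 at 24 h, against 3.81 at 12 h, which is under the filter level. Mxd4, an antagonist of Myc, rose 1.50-fold in controls. Mlx, a dimerization partner within this network, fell 1.47-fold with AMH and 1.70-fold in controls, and Mxd3 fell 1.70-fold with AMH and 1.47-fold in controls. Of 20 known Myc targets, all measured, 1 passed with AMH and 7 in controls, all lower, beside 3.94% and 9.19% of all genes called lower. Gnl3, a nucleolar protein of growing cells, fell 1.61-fold with AMH and 1.58-fold in controls, and Cad, the first enzyme of pyrimidine synthesis, fell 1.93-fold in controls. Nolc1, a nucleolar protein, fell 1.78-fold and Srm, spermidine synthase, 1.69-fold in controls.

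Genes around Atf3, Klf10, Klf9 and Ier3 were counted likewise, beside the 8.28% of all genes called with AMH and the 19.1% called in controls. Of 16 measured genes of the integrated stress response, 3 passed with AMH and 7 in controls, all lower, beside 3.94% and 9.19% of all genes called lower. Atf4, the factor at its centre, fell 1.41-fold with AMH and 1.42-fold in controls, and Atf5 fell 1.57-fold with AMH and 1.95-fold in controls. Asns, asparagine synthetase, fell 1.94-fold with AMH, and in controls Slc7a11, a cystine transporter, fell 2.63-fold and Ppp1r15a, which ends the response, 1.39-fold. Among 11 measured early TGF-β targets 2 were called with AMH and 3 in controls: Klf11 and Ltbp2, a matrix protein that binds to fibrillin, rose in both arms, and Pmepa1, an inhibitor of the pathway, fell 1.79-fold in controls. Among 10 glucocorticoid targets 1 was called with AMH and 2 in controls: Errfi1 fell in both arms and Fkbp5, a chaperone of steroid receptors, rose 1.69-fold in controls. Of 11 measured NF-κB and survival genes, none passed with AMH and 1 passed in controls, where 9.19% of all genes were called lower: Tnfaip3, an inhibitor of NF-κB, fell 1.76-fold in controls.

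Markers of cell types differed between the times as well, which in whole follicles can be the number of cells or the RNA per cell. The mean log2 signal of 13 measured granulosa markers ranged from 8.86 to 9.83 with AMH and from 8.76 to 9.45 in controls at 24 h, against 7.81 to 8.83 with AMH and 7.61 to 8.74 in controls at 12 h. The times did not overlap within either arm, though by a narrow margin, and the lowest 24 h control lay under the highest AMH arrays at 12 h. The 5 measured theca and steroidogenic markers lay at 9.38 to 10.23 with AMH and 9.53 to 10.29 in controls at 24 h, against 8.25 to 9.28 with AMH and 8.78 to 9.30 in controls at 12 h. The mean of 13 stroma and smooth muscle markers was 8.79 to 9.24 with AMH and 8.26 to 8.72 in controls at 24 h, against 7.76 to 8.31 with AMH and 7.01 to 8.52 in controls at 12 h. Endothelial markers (15 measured), a cell type known for Klf2 and Klf4, ranged from 6.31 to 7.11 with AMH and 6.20 to 6.68 in controls at 24 h, against 6.02 to 7.51 with AMH and 6.44 to 7.98 in controls at 12 h. Immune markers (11 measured) ranged from 5.34 to 6.92 with AMH and 5.14 to 6.01 in controls at 24 h, against 5.35 to 6.62 with AMH and 5.58 to 7.06 in controls at 12 h. The part of these markers in the time changes of the 8 genes was not tested. Adding the mean of the oocyte markers to the fit left 4 genes called with AMH and 3 in controls. Without the 2 oocyte-rich 24 h arrays 0 were called with AMH and 3 in controls. In the AMH arm 0 were also called without 24 h replicate 3 or without 12 h replicate 4, whose oocyte means were 7.46 and 7.78. Leaving out an AMH array at a time gave 0 to 3 calls, with 0 also without the oocyte-rich 24 h replicate 1. Each of these fits had fewer arrays, and the part of oocyte content in the losses was not tested.

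AMH gave no call among the 8 genes at 24 h or at 12 h by limma. At 24 h 0.0164% of all genes passed, 2 in number, and at 12 h 0%, with 4.07% and 6.47% of all genes at an unadjusted p under 0.05. Among the 8, Klf9 and Myc were under that level at both times. At 24 h 1 of the 8, Myc, moved one way in 4 of 4 pairs, beside 9.39% of all genes, and at 12 h 4 of the 8 did, namely Klf6, Klf9, Myc and Ier3, beside 17.9%. The median change of the 8 with AMH was -0.05 at 24 h and 0.04 at 12 h, against 0.01 over all genes at each time.

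Klf9 had a small positive change with AMH at both times. Its 24 h signals were 1010, 1160, 1100 and 1170 with AMH, against 1040, 993, 908 and 844 in the paired controls, and AMH was higher in 3 of 4 pairs. Its 12 h signals were 1470, 1160, 1280 and 1160 with AMH, against 1160, 1030, 1100 and 947 in controls, higher in 4 of 4 pairs. At 12 h 10.2% of all genes were higher in 4 of 4 pairs. The change was 0.23 (SE 0.10, adjusted p = 1) at 24 h and 0.25 (SE 0.10, adjusted p = 0.686) at 12 h, with intervals from 0.02 to 0.44 and from 0.05 to 0.46. Without replicate 4 the 24 h change was 0.15. All 5 Klf9 probe sets past the filter had changes above 0 at both times, between 0.17 and 0.28 at 24 h and between 0.11 and 0.35 at 12 h. These probe sets read the same 16 RNA samples and are not replicates.

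The Myc changes with AMH had opposite signs at 24 h and 12 h. At 24 h its signals were 328, 403, 422 and 394 with AMH, against 613, 762, 453 and 399 in paired controls, lower with AMH in 4 of 4 pairs, as were 3.44% of all genes. At 12 h they were 942, 504, 629 and 548 with AMH, against 446, 287, 581 and 417 in controls, higher in 4 of 4 pairs, as were 10.2% of all genes. The pair differences were -0.90, -0.92, -0.10 and -0.02 at 24 h and 1.07, 0.81, 0.11 and 0.39 at 12 h, so that at 24 h pairs 1 and 2 carried nearly all of it. The change was -0.49 (SE 0.19, adjusted p = 1) at 24 h and 0.60 (SE 0.19, adjusted p = 0.626) at 12 h. Without replicate 2 it was -0.34 at 24 h, and without replicate 1 it was 0.44 at 12 h. Set against each other, the AMH effect at 24 h minus that at 12 h came to -1.08 (SE 0.27), which did not pass over all genes (adjusted p = 0.42 by limma). It was the only one of the 8 with an unadjusted p under 0.05, beside 5.64% of all genes, and it ran from -1.37 to -0.78 with a replicate removed from every group in turn. Its adjusted p was 0.999 with no replicate block, 0.229 without 24 h pairs 1 and 4 and 0.0894 with those pairs crossed, the last 2 settings being chosen after seeing the data.

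**Figure D4:**
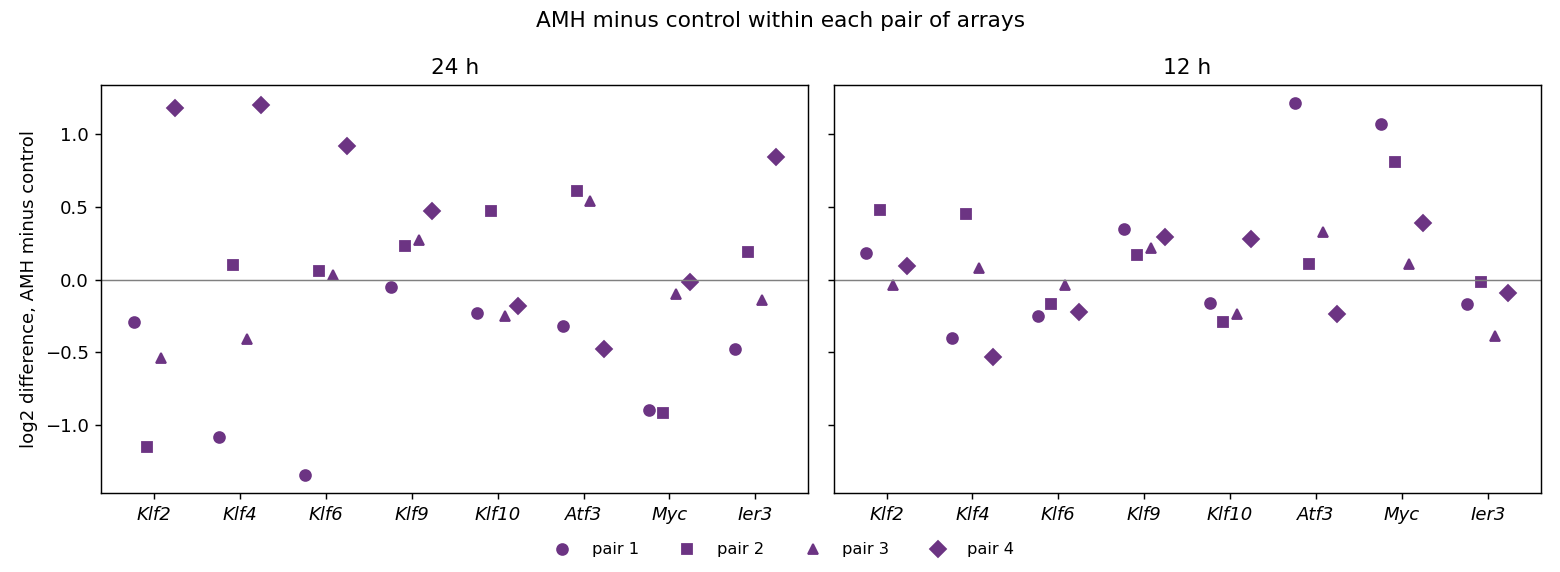
AMH minus control within each pair of arrays, in log2 units, at 24 h (left) and 12 h (right), with pair numbers as symbols. Myc lies below 0 in all 24 h pairs and above 0 in all 12 h pairs, and Klf2, Klf4, Klf6 and Ier3 spread widely at 24 h, with pair 4 highest.

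For Klf2, Klf4, Klf6 and Ier3 the 24 h pairs disagreed with each other. Over all genes the paired arrays of 24 h pairs 1 and 4 deviated from their group means in opposite directions (r of -0.437 and -0.287). Whether these arrays are paired as labelled is in doubt and was not tested, nor was the part of their unlike oocyte content, given below. Their pair differences hold only under the labelled pairing. With the 2 pairs crossed the SE of the 24 h change was 0.09 in place of 0.26 for Klf6 and 0.16 in place of 0.30 for Klf4, with the changes as before. The crossing was chosen after seeing the data. Pairing arrays that deviate alike lowers the SE by construction, so the smaller SE says nothing about which pairing is right. Klf6 differed by -1.34, 0.06, 0.03 and 0.92 in pairs 1 to 4 at 24 h, and by -0.25, -0.17, -0.04 and -0.22 at 12 h. Klf4 differed by -1.08, 0.10, -0.41 and 1.20 at 24 h, against -0.40, 0.45, 0.08 and -0.53 at 12 h. Pair 4 gave 1.18 for Klf2 and 0.84 for Ier3 at 24 h. In these pairs the oocyte mean differed too, at 8.70 with AMH and 7.68 in the control of pair 1, and at 7.38 with AMH and 8.83 in the control of pair 4. The part of this difference in the pair values was not tested. The 24 h change with AMH was -0.20 for Klf2 (interval -0.86 to 0.46), -0.05 for Klf4 (interval -0.71 to 0.61), -0.08 for Klf6 (interval -0.65 to 0.49) and 0.10 for Ier3 (interval -0.27 to 0.47). Without replicate 1 the Klf6 change turned to 0.34 and the Klf4 change to 0.29, without replicate 2 the Klf2 change to 0.12, and without replicate 4 the Ier3 change to -0.14.

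For these 4 genes the 12 h pairs lay closer together. Klf6 and Ier3 were lower with AMH in 4 of 4 pairs, as were 7.71% of all genes, with changes of -0.17 each (SE 0.26 and 0.17). Klf2 had a change of 0.18 (interval -0.48 to 0.84), Klf4 of -0.10 (interval -0.76 to 0.56) and Klf10 of -0.11 (interval -0.44 to 0.23). For Atf3 the change was 0.35 (interval -0.26 to 0.96), with 1.21 in pair 1, and without replicate 1 it was 0.07. At 24 h Klf10 had a change of -0.05 (interval -0.38 to 0.29) and Atf3 of 0.09 (interval -0.52 to 0.70). The intervals leave room for changes of these sizes, and the p values do not show equal levels with and without AMH. Apart from Myc, the AMH effect at 24 h minus that at 12 h lay between -0.38 for Klf2 and 0.27 for Ier3, all with an adjusted p of at least 0.95.

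None of the genes in the 8 pathway lists passed for AMH at either time. The smallest p there belonged to Mxd4 at 12 h, with a change of 0.40 (SE 0.10, adjusted p = 0.446). The immediate-early list had a median change of 0.13 at 24 h and of -0.05 at 12 h. Dusp1, a phosphatase that acts on ERK and related kinases, stood at 0.69 (SE 0.24, adjusted p = 0.954) at 24 h.

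Over the 16 arrays the Pearson r was positive for every pair of the 8 genes, from 0.15 for Myc and Ier3 to 0.87 for Klf4 and Ier3. Within the groups they did not form one pattern. After subtraction of the group means, Klf4 and Klf6 had an r of 0.76, Klf9 and Myc of 0.74, Klf6 and Klf9 of 0.67 and Klf4 and Ier3 of 0.60. The only negative values were -0.52 for Klf2 and Atf3, -0.46 for Klf2 and Klf10, -0.40 for Atf3 and Ier3 and -0.08 for Klf10 and Ier3. Other transcripts of the same arrays moved along: the same r was 0.72 for Klf6 and 0.71 for Myc with the immune marker mean, 0.70 for Klf10 and 0.68 for Atf3 with the endothelial mean, 0.68 for Atf3 with the stroma mean, -0.65 for Klf2 with the endothelial mean and -0.56 for Klf6 with the oocyte mean. With the granulosa mean the r was -0.60 for Klf10, -0.58 for Klf6 and Atf3 and -0.56 for Klf4, and between -0.37 and 0.11 for the others. The r was also -0.64 for Klf2 with the stroma mean, and 0.61 for Klf10 and 0.60 for Atf3 with the immune mean. These values describe 16 arrays that share groups and pools, and marker content was not separated from them.

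By a fixed rule, the genes most like each member by Pearson r of log2 signal over the 16 arrays are named, with the r after subtraction of group means beside it. For Klf4 these were Fam13b (0.945, and 0.898 without group means) and Plin2, a lipid droplet protein (0.918, and 0.850). For Klf10 they were the integrin Itga7 (0.935, and 0.806) and Tbc1d1 (0.928, and 0.836). Klf2 was most like Rala, a small GTPase (0.924, and 0.858), and Ciapin1 (0.893, and 0.783). Ier3 was most like Uhrf1bp1l (0.914, and 0.604) and Ugdh, which makes a hyaluronan precursor (0.910, and 0.627), so more of its likeness lay between the groups. Klf6 was most like Lgals3, galectin 3 (0.905, and 0.956), and Hexim1 (0.889, and 0.864), and Atf3 most like the heat-shock gene Hspa1a (0.889, and 0.833) and Bach1 (0.873, and 0.787). Klf9 was most like Coch (0.840, and 0.787) and Unc45a (0.817, and 0.841), and Myc had the least close matches, Ccnh, cyclin H (0.797, and 0.683), and Ahnak (0.765, and 0.808).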

How the data were processed

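Total RNA of cultured follicles (5 ng) was amplified, labelled with biotin and hybridised to Affymetrix mouse arrays, per the labels' protocols. The deposited tables hold linear intensities, 1 per probe set, computed with MAS5 per the submitters' processing notes. The MAS5 version and detection calls are not given in the sources used here. Arrays share a trimmed mean of 150, and their median signals lay between 27.8 and 40.2. The number of arrays limits the precision. The labels number the replicates without saying that each number is a separate pool, so p values measure the spread between these samples, which may be partly technical.

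Of the 45101 probe sets, 64 are controls, and 34945 carry 1 gene symbol, 932 several and 9160 none in the annotation used. The offset of 1.46 is the 10th percentile of all values. Probe sets with a mean log2 at or above the 40th percentile (4.18) entered, the brightest standing for its gene. Linear models with variances moderated along the mean (limma 3.58.1, R 4.3.3) covered all 16 arrays, with Benjamini-Hochberg adjustment over 12172 genes. AMH effects had the 8 pairs as a block, as the labels give them; times had none. Deviations of paired arrays from group means correlated at -0.437, 0.327, 0.2 and -0.287 at 24 h and at 0.299, 0.349, 0.56 and 0.214 at 12 h. Log2 signals within a group correlated at 0.923 to 0.977, and no 2 arrays held identical values.

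The 8 genes, the lists and the tests were chosen with earlier results of these data known. List genes named are up to 4 per comparison that passed with the lowest p. The others (Arc, Fosb, Dusp2, Klf5 with AMH, and list genes for AMH) were picked after their values were seen. Alternatives were other offsets, filters, scalings, probe set rules, weights, moderation, blocks, covariates and arrays left out. The fit was tried on simulated data with independent noise, for AMH and time but not for the difference of AMH effects. The simulated arrays held no pairs, pools or differences in cell content, so they say nothing about how the fit handles these. Promoters and positions came from RefSeq (GRCm38.p6). Plots used matplotlib 3.10.9 (Python 3.11.15).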

Additional observations from a re-analysis of the deposited data

Results flagged for a closer look

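In the 12 h controls, replicate 1 stood apart for Ier3, with a signal of 3330 against 2720 to 2810 on the other 3 arrays. On the log2 scale its gap made up 0.844 of the range of the group, above Dixon's 95% critical value for 4 samples. Of 32 groups of 4 arrays examined (8 genes in 4 groups) this was the 1 to exceed it, and chance alone gives about 1 in 20. Without that array the control change of Ier3 over time was -0.82 (adjusted p = 0.00723).

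Myc was lower with AMH in every 24 h pair, as were 3.44% of all genes, and higher in every 12 h pair, as were 10.2%. The share of genes with both was not counted. The 24 h differences were small in pairs 3 and 4, at -0.10 and -0.02. The AMH effect on Myc at 24 h minus that at 12 h was -1.08, and its test in limma did not pass over all genes (adjusted p = 0.42).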

How the results depend on the processing

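Over all other fits, 710 of 779 values of a gene in a comparison kept their direction and their side of the threshold, 37 lost a call, 3 gained one and 29 turned sign, none of them with an adjusted p under 0.05. For time with AMH, 4 genes were called, against 2 with no filter on low signals, 1 with median centring of the arrays, 0 without both oocyte-rich 24 h arrays (a fit with fewer samples, chosen after seeing the data) and 0 to 3 when 1 array was left out. Klf4 was called in 16 and Klf2, Klf10 and Ier3 each in 12 of 22 other fits of time with AMH, always lower. Beside the fits with arrays left out, Klf2 and Klf10 lost the call with no filter, with median centring and with the AMH arrays fitted alone (adjusted p between 0.0519 and 0.0793), and Ier3 with quantile, loess or median scaling (0.0511 to 0.0611). For time in controls, 3 were called, against 5 with array weights and 2 to 3 with 1 array left out. With the replicate number as a block (replicate block) the counts of called genes for time stayed at 4 and 3, and without the pair block no AMH call among the 8 appeared. Samples of one number at the 2 times deviated together at r between -0.409 and 0.247.

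Median centring moved the median of all genes to 0.12 for AMH at 24 h, to -0.19 for time in controls and to 0.15 for the difference of AMH effects. Under it, AMH at 24 h gave 0.07 for Klf4, 0.03 for Klf6 and 0.07 for Klf10, each under that shift, and the difference gave 0.13 for Klf9. Array weights turned Klf6 with AMH at 24 h to 0.04, and the difference to -0.04 for Klf4, 0.00 for Klf9 and 0.01 for Atf3. With 24 h pairs 1 and 4 left out, AMH at 24 h gave 0.05 for Klf6 and 0.11 for Klf10, and the difference gave -0.06 for Klf4 and 0.22 for Atf3.

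With each replicate left out, the AMH change ranged at 12 h from -0.28 to 0.04 for Klf4. At 24 h it ranged from -0.66 to 0.12 for Klf2, -0.47 to 0.29 for Klf4, -0.42 to 0.34 for Klf6, -0.22 to 0.02 for Klf10, -0.08 to 0.28 for Atf3 and -0.14 to 0.30 for Ier3. The difference ranged from -0.87 to 0.04 for Klf2, -0.51 to 0.29 for Klf4, -0.26 to 0.48 for Klf6, -0.09 to 0.10 for Klf9, -0.18 to 0.23 for Klf10 and -0.52 to 0.16 for Atf3. The cause of these turns was not tested.

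All genes called for time numbered 1008 with AMH, against 564 with median centring, 1857 with array weights, 1566 probe sets tested each on its own and 516 to 948 with 1 array left out. In controls they numbered 2330, against 3945 with array weights. For AMH at 24 h 2 genes were called, against 7 with array weights, 4 with 24 h pairs 1 and 4 crossed (chosen after seeing the data) and 0 in several others, and for the difference 0, against 21 with array weights and 23 with crossed pairs. The signal of Atf3, at most 160, left it out under the 60th percentile filter.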
